A study of Sus scrofa with 10 samples.

Results

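Genes with a high transcript level in both lung and kidney were described in 60-day-old Northeast Min pigs. A gene was included when both organs held at least 2 FPKM (fragments normalised to transcript length and library size) and when the lower of the pair was at least 3-fold above the highest of 7 other tissues, both taken as FPKM + 1. The other 7 tissues were heart, liver, spleen, psoas major muscle, longissimus dorsi muscle, subcutaneous adipose tissue and ovary. Of 25880 gene models, 9518 reached 2 FPKM in both organs and 21 met the rule, which is 0.221% of the 9518 and 0.0811% of all models. 20 of the 21 carried a gene symbol. Each of the 9 tissues was sequenced once, and a further library came from a mixture said to combine lung and kidney with heart, liver, spleen, ovary and muscle; it is called the pool here. All libraries shared the breed and the age, no treatment is named, and the labels do not say how many pigs were used. The measured levels chose the 21 genes, so their distance from the other 7 tissues is given as a description, and the pool, which the rule left out, is described separately. With 1 library per tissue no difference has a replicate check, and no test, error or p-value is given.

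Lung and kidney arise from different germ layers, but in both a polarised epithelium separates a lumen from the blood. Such sheets are sealed by tight junctions and move salt and water from the luminal to the blood side. In the kidney collecting duct and in the airways and alveoli, sodium enters through the epithelial sodium channel ENaC, which is built from alpha, beta and gamma subunits and activated by proteases bound to the cell membrane. Both organs also hold dense capillary beds, and specialised type IV collagens occur in the basement membranes of glomeruli and alveoli.

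Estimated from the spacing of values in short gene models, depth ran from 20.2 M fragments in heart to 47.3 M in ovary, with 31.5 M in lung and 23.0 M in kidney. Each estimate is uncertain by a factor of 2. Most defining markers of the 2 organs were low in the other one. Of 9 markers of the proximal tubule, loop and distal tubule, lung held between 0.00222% and 1.23% of the kidney level, with a median of 0.0141%. Collecting duct markers were mixed: AQP2, a water channel gene, stood at 0.0305 FPKM in lung and 72.4 in kidney, but AQP3 stood at 18.9 and 16.4, and AVPR2, the vasopressin receptor gene, at 1.57 and 1.47. The 6 podocyte markers summed to 139 FPKM in kidney and 26.5 in lung, and 3 of them were 3-fold above the other 7 tissues in kidney only. Among the 6, SYNPO stood at 17.2 in lung and 5.12 in kidney. Of 14 alveolar and airway markers of lung, kidney held between 0% and 15.5% of the lung level, with a median of 0.0608% and the highest share for the cilium gene DNAI1, whose level was itself highest in longissimus dorsi (38.8 FPKM). In such bulk samples, fewer cells of a type and less RNA per cell cannot be told apart.

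The 21 genes were present at moderate levels. The lower of lung and kidney ran from 3.14 FPKM (ENSSSCG00000035807) to 109 FPKM (ACE), with a median of 9.23. The highest of the other 7 tissues had a median of 1.22 FPKM and was under 1 FPKM for 10 genes. Together the 21 genes held 0.262% of the summed FPKM of lung and 0.683% of that of kidney. Positions are given on Sscrofa11.1 as the deposited table lists them. The genes lay on 13 chromosomes, and the closest pair on any chromosome, SCNN1G and C16orf89, was 14333241 bp apart.

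**Figure D1:**
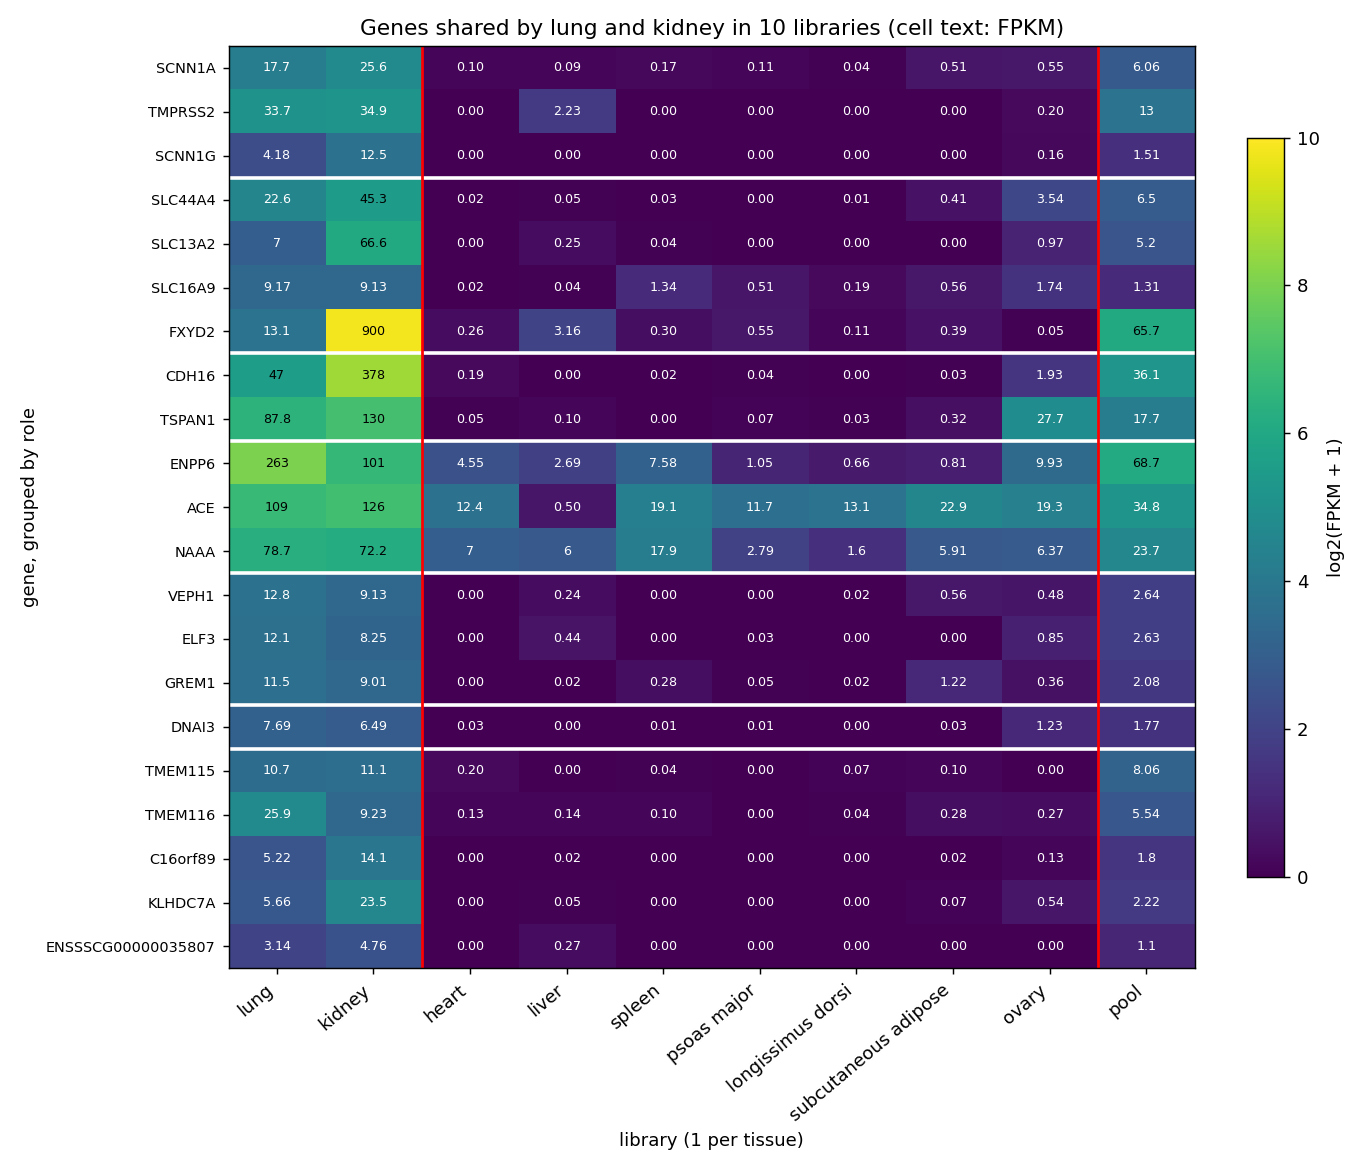
FPKM of the 21 shared genes (rows, grouped by role) in the 10 libraries (columns, 1 library each), with colour giving log2(FPKM + 1). The red lines set off lung and kidney on the left and the pool on the right; ACE, NAAA and ENPP6 are present in most of the other tissues, and TSPAN1 reaches 27.7 FPKM in ovary.

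Genes of sodium entry come first. SCNN1A, which encodes the alpha subunit of ENaC (chromosome 5, 64285015 to 64314819), stood at 17.7 FPKM in lung and 25.6 FPKM in kidney. Over the other 7 tissues it ran from 0.0442 to 0.546 FPKM, with a median of 0.110, so no other tissue came near either organ. Its margin over the highest of them, ovary, was 12.1-fold on the FPKM + 1 scale. SCNN1G, the gamma subunit (chromosome 3, 22976931 to 23013385), stood at 4.18 FPKM in lung and 12.5 in kidney. It was listed at 0 in 6 of the other 7 tissues and at 0.159 in ovary.

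The beta subunit did not follow the rule. SCNN1B stood at 8.01 FPKM in lung, 9.52 in kidney and 8.21 in ovary, and at no more than 0.540 (liver) in the remaining 6 tissues. Ovary therefore held the beta subunit at the level of lung while the alpha and gamma subunits were under 1 FPKM there. Lung and kidney were the only libraries of the 9 tissues with all 3 subunits above 1 FPKM.

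TMPRSS2, a serine protease anchored in the membrane (chromosome 13, 204874758 to 204914582), stood at 33.7 FPKM in lung and 34.9 in kidney. Liver held 2.23 FPKM and ovary 0.199, and the other 5 tissues were listed at 0. The lung level was 96.6% of the kidney level, and the margin over liver was 10.7-fold. Some other membrane proteases and their inhibitors were high in both organs but also present in ovary. PRSS8, which encodes prostasin, an activator of ENaC, stood at 34.9 FPKM in lung, 44.7 in kidney and 27.3 in ovary. ST14, which encodes matriptase, stood at 29.4, 39.3 and 11.05, and its inhibitor genes SPINT1 and SPINT2 at 9.69 and 56.4 FPKM in ovary against at least 13.4 and 115 in lung and kidney.

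Of 14 detected genes on the list of ENaC and membrane proteases, 3 were shared by the rule and 8 were above all 7 other tissues in both organs by some margin. Over all 15637 genes that reached 1 FPKM in at least 1 tissue, 0.134% were shared and 4.83% were above by some margin. On the log2 scale, the lower of lung and kidney was compared with the highest of the other 7. The median difference was 0.39 for this list and -1.15 over all these genes. The list was chosen with earlier results of these data known, so these values are only a description.

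4 of the shared genes belong to transport. FXYD2, the gamma subunit that modulates the sodium pump (chromosome 9, 45165815 to 45170294), was the most uneven of the 21: 900.1 FPKM in kidney, 13.1 in lung, 3.16 in liver and at most 0.552 in the other 6 tissues. Its lung level was 1.46% of the kidney level. FXYD2 no longer met the rule after median-of-ratios scaling or quantile normalisation. SLC13A2, a sodium-coupled transporter of citrate and succinate (chromosome 12, 44733106 to 44753898), stood at 66.6 FPKM in kidney and 7.001 in lung, with 0.966 in ovary as the next level. SLC44A4, a choline and thiamine pyrophosphate transporter (chromosome 7, 23958941 to 23978188), stood at 45.3 in kidney, 22.6 in lung and 3.54 in ovary. The SLC44A4 model overlaps EHMT2 on the same strand by 181 bp, and EHMT2 stood between 4.21 and 42.8 FPKM in the 9 tissues, highest in ovary. SLC16A9, of the monocarboxylate transporter family (chromosome 14, 63026665 to 63108866), was level in the pair, at 9.17 FPKM in lung and 9.13 in kidney, against 1.74 in ovary and 1.34 in spleen.

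Most transport genes of the list were instead high in a single organ. Of 26 detected, 11 were 3-fold above the other 7 in kidney only, 5 in lung only and 1, FXYD2, in both. Over all detected genes these shares were 2.07% for kidney only and 1.59% for lung only. The kidney genes included ATP6V1B1, a proton pump subunit (294 FPKM, against 2.33 in lung), and the apical sodium-proton exchanger SLC9A3 (36.7 against 0.0265). The lung genes included the phosphate transporter SLC34A2 (186 FPKM, against 0.00994 in kidney), the chloride channel gene CFTR (11.9 against 0.177) and the water channel gene AQP5 (36.3 against 0.0955).

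At the cell surface, CDH16 had the largest margin of all 21 genes. It encodes a cadherin named for its place in the kidney (chromosome 6, 27588180 to 27598987) and stood at 378 FPKM in kidney and 47.0 in lung. The other 7 tissues ran from 0, in liver, to 1.93 in ovary, with a median of 0.0347, a margin of 16.4-fold. The lung level was 12.4% of the kidney level. TSPAN1, a tetraspanin (chromosome 6, 165224620 to 165230217), stood at 130 FPKM in kidney and 87.8 in lung, but ovary held 27.7, which put it closest to the threshold at 3.09-fold. In the other 6 tissues TSPAN1 was at most 0.323 FPKM. Its model overlaps POMGNT1 on the opposite strand by 1959 bp, and POMGNT1 itself stood between 3.75 and 26.8 FPKM in the 9 tissues.

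The 3 shared enzyme genes were all abundant, at 72.2 FPKM or more in both organs. ACE, the angiotensin-converting enzyme of capillary endothelium and of the proximal tubule brush border (chromosome 12, 15394491 to 15414632), stood at 109 FPKM in lung and 126 in kidney. Liver was lowest of the other 7 at 0.504, the median was 13.1 and the highest was adipose tissue at 22.9. After median-of-ratios scaling ACE no longer met the rule. The 12 detected endothelial markers summed to 942 FPKM in lung, 192 in kidney and 128 to 571 in the other 7 tissues, and none of the 12 was above the other 7 in both organs. The part of endothelium in the ACE level was not tested.

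ENPP6, a choline-specific glycerophosphodiesterase (chromosome 15, 45357680 to 45441075), was the highest of the 21 in lung, at 263 FPKM, and stood at 101 in kidney. The other 7 tissues ran from 0.657 in longissimus dorsi to 9.93 in ovary, a margin of 9.32-fold. NAAA, a lysosomal hydrolase of N-acylethanolamines (chromosome 8, 71573787 to 71603248), stood at 78.7 FPKM in lung and 72.2 in kidney, and at 1.60 to 17.9 in the others, with spleen highest. The 7 macrophage markers summed to 1902 FPKM in lung, 2374 in spleen and 42.8 in kidney. The part of macrophages in the NAAA level was not tested.

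3 shared genes encode regulators, all at modest levels and all somewhat higher in lung. ELF3, an epithelial transcription factor of the ETS family (chromosome 10, 24237068 to 24243058), stood at 12.1 FPKM in lung and 8.25 in kidney, and was listed at 0 in 4 of the other tissues, with 0.849 in ovary as the highest. GREM1, a secreted antagonist of bone morphogenetic proteins (chromosome 1, 136617105 to 136629292), stood at 11.5 in lung and 9.01 in kidney, and next at 1.22 in adipose tissue. VEPH1, a protein with a pleckstrin homology domain (chromosome 13, 97078509 to 97366075), stood at 12.8 and 9.13, and next at 0.561 in adipose tissue. The VEPH1 model spans PTX3 on the opposite strand, which was highest in ovary (21.97 FPKM) and stood at 1.58 in lung and 0.441 in kidney.

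DNAI3, a dynein arm gene of the motile cilium also known as WDR63 (chromosome 4, 130761436 to 130826718), stood at 7.69 FPKM in lung, 6.49 in kidney and 1.23 in ovary, and at 0.0273 or less in the other 6 tissues. Other genes of motile cilia varied in kidney. DNAH5, an outer dynein arm gene, stood at 4.17 FPKM in lung and 0.00314 in kidney, and FOXJ1, the regulator of motile cilia, at 24.2 and 2.19. DYNLRB2, a dynein light chain gene, stood at 27.5 in lung and 12.1 in kidney, and CFAP300, a cilium assembly gene, at 5.91 and 54.3; both were among the genes that met the rule only without ovary, and both were picked here after their values were seen.

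The remaining 5 shared genes have less settled roles. TMEM116 (chromosome 14, 39698379 to 39800850) stood at 25.9 FPKM in lung and 9.23 in kidney and at most 0.277 elsewhere. KLHDC7A (chromosome 6, 77023865 to 77027234) and C16orf89 (chromosome 3, 37346626 to 37367380) leaned to kidney, at 23.5 and 14.1 FPKM against 5.66 and 5.22 in lung, and both were under 1 FPKM in each of the other 7 tissues. TMEM115, a Golgi protein gene (chromosome 13, 32835362 to 32842383), stood at 10.7 in lung and 11.11 in kidney and at no more than 0.203 (heart) in the others, among which liver, psoas major and ovary were listed at 0. Its model overlaps CYB561D2 on the opposite strand by 2942 bp, and CYB561D2 was detected in all 9 tissues, between 1.26 and 11.12 FPKM. Whether the counting used strand is not given in the sources used here, so reads of overlapping genes cannot be told apart. ENSSSCG00000035807, a model of 1017 bp on chromosome 1 (31048535 to 31049551) that lies inside the RefSeq gene TAAR1, stood at 3.14 FPKM in lung and 4.76 in kidney. This model no longer met the rule after median-of-ratios scaling or quantile normalisation.

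In 13 of the 21 genes lung and kidney were within 2-fold of each other on the FPKM + 1 scale. 6 genes were more than 2-fold higher in kidney and 2 in lung. The rule asks for a high level in the lower organ, and the same shares over all genes were not computed. Nothing was therefore read from these counts. The kidney genes were FXYD2, SLC13A2, CDH16, KLHDC7A, SCNN1G and C16orf89, which spanned 68.7-fold (FXYD2) to 2.71-fold (C16orf89) in FPKM. The lung genes were TMEM116 (2.81-fold) and ENPP6 (2.60-fold). SLC16A9, TMPRSS2, TMEM115 and NAAA differed least, with the lower organ at 91.8% or more of the higher.

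**Figure D2:**
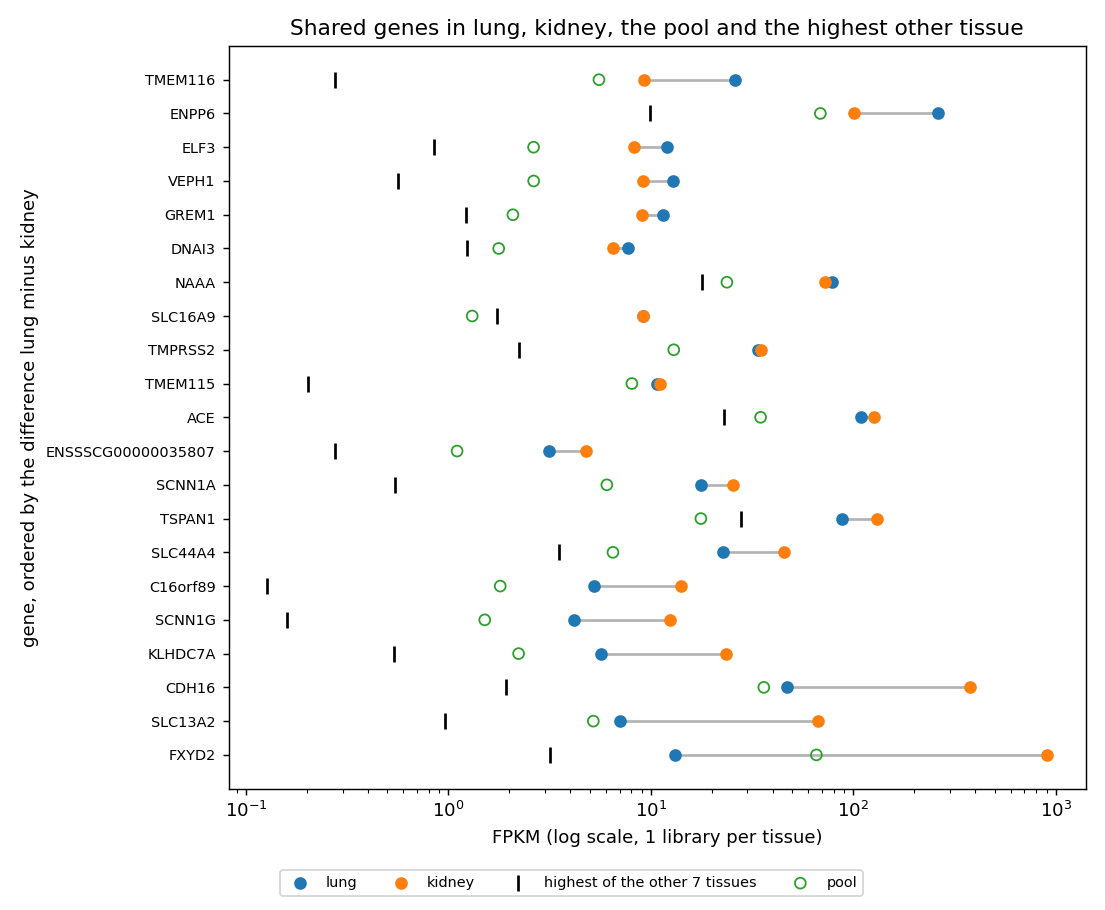
FPKM on a log scale of each shared gene in lung, kidney and the pool, with a bar for the highest of the other 7 tissues, ordered by the log2 difference between lung and kidney. TMEM116 and ENPP6 lean to lung at the top, and FXYD2, SLC13A2 and CDH16 lean to kidney at the bottom; in TSPAN1 and SLC16A9 the pool lies left of the highest other tissue.

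The pool gave a library that the rule had not used. All 21 genes were at 1 FPKM or more in the pool. SCNN1A stood there at 6.06 FPKM, SCNN1G at 1.51, TMPRSS2 at 13.0 and CDH16 at 36.1. The enzyme genes ENPP6, ACE and NAAA stood at 68.7, 34.8 and 23.7 FPKM. Only FXYD2, at 65.7 FPKM, exceeded the lower of lung and kidney, so 20 of the 21 lay below it. In 19 genes the pool value was above that of the highest of the other 7 tissues. Among the 9518 genes at 2 FPKM or more in both organs, 2.43% stood above those 7 tissues in the pool. Because the rule chose genes that are low in those 7 tissues, the 2 shares are not a like comparison and nothing was read from their difference. The exceptions were TSPAN1, at 17.7 FPKM in the pool against 27.7 in ovary, and SLC16A9, at 1.31 against 1.74. The pool value was 12.03% of the sum of lung and kidney at the median. It ran from 7.06% (SLC13A2) to 18.9% in 20 genes and was 37.0% in TMEM115, which stood at 8.06 FPKM in the pool. CYB561D2, which overlaps TMEM115, stood at 7.62 FPKM in the pool.

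A few genes lay close to the threshold. Just inside it were TSPAN1 (3.09-fold), ENSSSCG00000035807 (3.25), DNAI3 (3.36), FXYD2 (3.39) and SLC16A9 (3.69). Just outside were the gap junction gene GJB7 (2.98-fold), the aldehyde dehydrogenase gene ALDH3A1 (2.94), CRACR2B (2.84), SMPDL3A (2.80) and the tetraspanin gene TSPAN11 (2.74). GJB7 stood at 2.58 FPKM in lung, 2.21 in kidney and 0.0753 or less in the other 7 tissues, so with 1 added to each value its own low level kept it out. OCLN, the tight junction gene of occludin, was 8th outside at 2.53-fold, with 25.02 FPKM in lung, 17.0 in kidney and 6.10 in liver.

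The shared genes had been proposed as an epithelial set. This label was set beside 12 lists, called epithelial here, that hold 246 genes. The lists were chosen with earlier results of these data known, so they are no independent check of the label. They also include lung or kidney lineage factors and basement membrane genes that are not confined to epithelium, such as COL4A2, which was highest in adipose tissue. 224 of them were detected, 6 of the 21 shared genes were on the lists (CDH16, ELF3, SCNN1A, SCNN1G, TMPRSS2 and FXYD2), and these made up 2.68% of the detected list genes, against 0.134% of all detected genes. A further 51 list genes were above the other 7 tissues in both organs by less than the threshold. No floor was set on the level in either organ, so genes such as BSND (0.0790 FPKM in lung) were counted. With the 6 shared genes the 51 made 25.4% of the detected list genes. Counted the same way, the share was 4.83% of all detected genes. By single organ, 36 list genes (16.1%) were 3-fold above in kidney only and 19 (8.48%) in lung only. Over all detected genes these shares were 2.07% and 1.59%. The counts overlap, since 18 of the 51 genes were also 3-fold above in 1 organ. The transport list gave 11 of the kidney and 5 of the lung genes. The list of lung or kidney lineage factors gave 5 and 4. That list was made of factors of these organs, so the single-organ shares follow in part from the choice of lists. No gene of the lists for tight junctions (22 detected), keratins (5), basement membrane (28), apical trafficking (22), luminal secretion (12), growth factor signalling (25), primary cilium (14) or lineage transcription factors (17) was shared. With 0.134% of all detected genes shared, lists of this size with 0 lie near the background, and nothing was read from them. By these lists the label describes 6 of the genes; the other 15, ACE, NAAA and GREM1 among them, were on none of the 12.

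**Figure D3:**
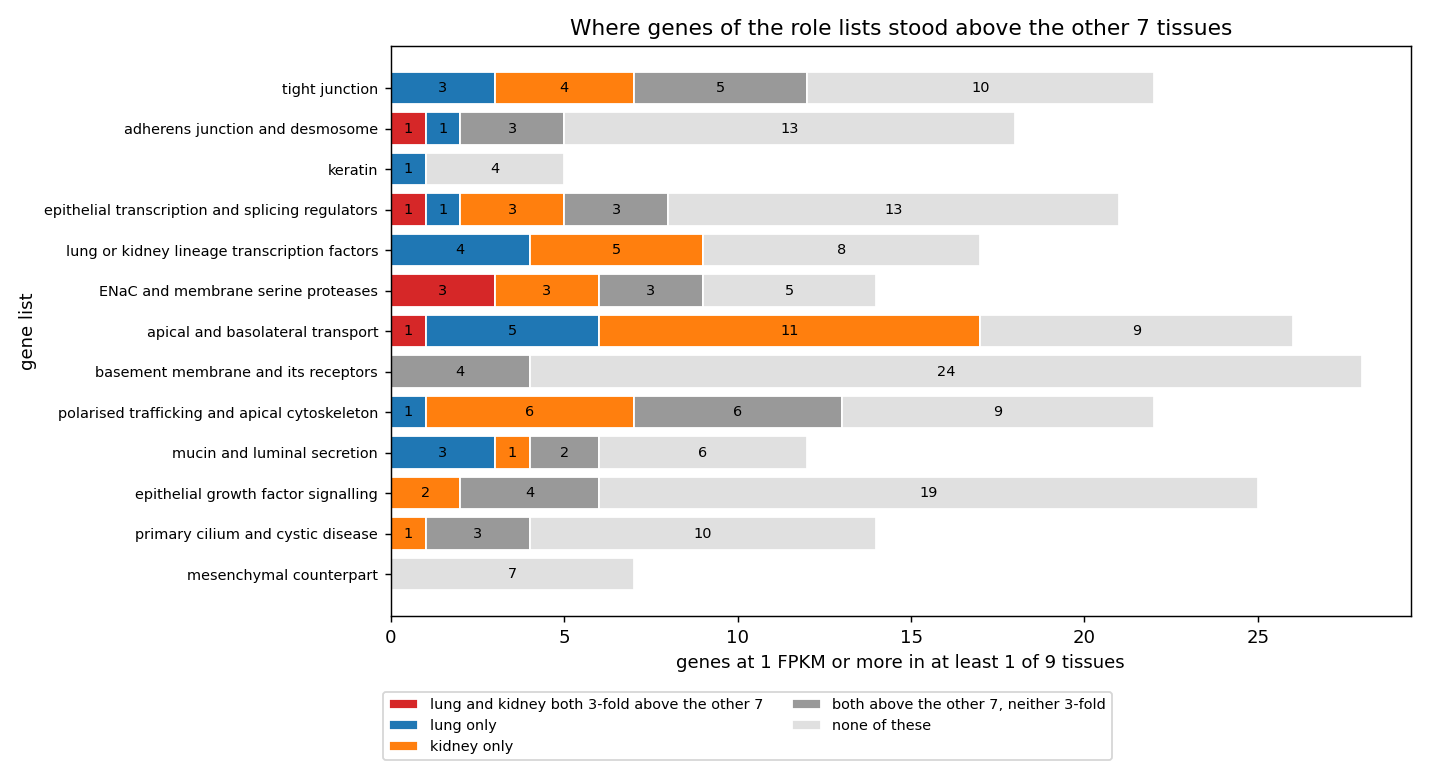
Number of detected genes of each role list (bar length) that were 3-fold above the other 7 tissues in both lung and kidney, in lung only or in kidney only, or that were above them in both organs without passing 3-fold in either. The red part holds 3 genes in the list of ENaC and membrane proteases and 1 in each of 3 other lists; the transport list is split into 5 lung genes and 11 kidney genes.

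Several claudins differed between the organs. CLDN18 stood at 51.8 FPKM in lung and was listed at 0 in kidney, whereas CLDN2, a claudin that forms cation pores, stood at 154 in kidney and 0.0108 in lung. CLDN10, CLDN16 and CLDN19, which serve ion passage in the thick ascending limb, were also called in kidney only, at 61.5, 4.78 and 18.6 FPKM. CLDN7 stood at 36.2 in lung and 16.9 in kidney, beside 16.2 in ovary. CLDN4 stood at 32.2 and 24.2 FPKM, with 43.3 in liver and 72.7 in adipose tissue. CDH1, the gene of E-cadherin, stood at 70.7 in lung and 31.7 in kidney against 62.6 in liver and 44.5 in ovary.

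Lineage transcription factors were split in the same way. Of 17 detected, 4 were called in lung only and 5 in kidney only, where the shares over all detected genes were 1.59% and 2.07%. The list was made of factors of lung or kidney lineage, so these calls follow in part from its choice. TBX4 stood at 20.9 FPKM in lung and was listed at 0 in kidney, and FOXF1 stood at 15.7 and 0.438. PAX2 stood at 29.2 FPKM in kidney and was listed at 0 in lung. Regulators of epithelial identity were also present outside the pair: GRHL2 stood at 6.42 FPKM in lung and 2.64 in kidney against 11.05 in ovary, and the splicing regulator ESRP1 at 6.86 and 3.08 against 22.9. Its relative ESRP2 was highest in liver, at 19.1 FPKM, with 14.3 in lung and 9.17 in kidney. IRX2, a homeobox gene, lay outside the threshold at 2.33-fold, with 4.92 in lung and 2.92 in kidney against 0.686 in adipose tissue.

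Ovary was the tissue that most often limited the set. It was the highest of the other 7 tissues for 12 of the 21 genes and for 121 of the 224 detected list genes (54.0%), compared with 39.1% of all 15637 detected genes. Of the 9518 genes at 2 FPKM or more in both organs, which is the base for the 21, ovary was highest for 38.0%. Liver came next among the list genes, with 41. When ovary was not compared, 72 genes met the rule, or 0.756% of the 9518, and 26 of them were on the epithelial lists. The 51 added genes were 3-fold above the other 6 tissues in both organs. Leaving out liver gave 35 genes, adipose tissue 30 and spleen 28, and leaving out heart or either muscle gave 22 each.

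20 of the 51 added genes were on the epithelial lists. EPCAM, an adhesion molecule of simple epithelia (22.4 FPKM in lung, 39.6 in kidney), stood at 13.5 in ovary and at no more than 0.494 in the other 6. MUC1, a membrane mucin, stood at 10.6 and 10.2 against 3.60 in ovary, and at 0.124 or less elsewhere. WFDC2, a secreted protein of the airway and tubule lumen, was the most abundant, at 222 and 335 FPKM against 97.7 in ovary and 24.5 in spleen. In 14 of the 20 genes ovary lay below both organs, and in 3 (KRT7, ESRP1 and GRHL2) it lay above both. Over all 51 added genes, ovary lay below both in 34 and above both in 6, so nothing was read from the counts of list genes. KRT7, a keratin of simple epithelia, stood at 31.8 FPKM in ovary against 7.58 in lung and 10.6 in kidney.

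**Figure D4:**
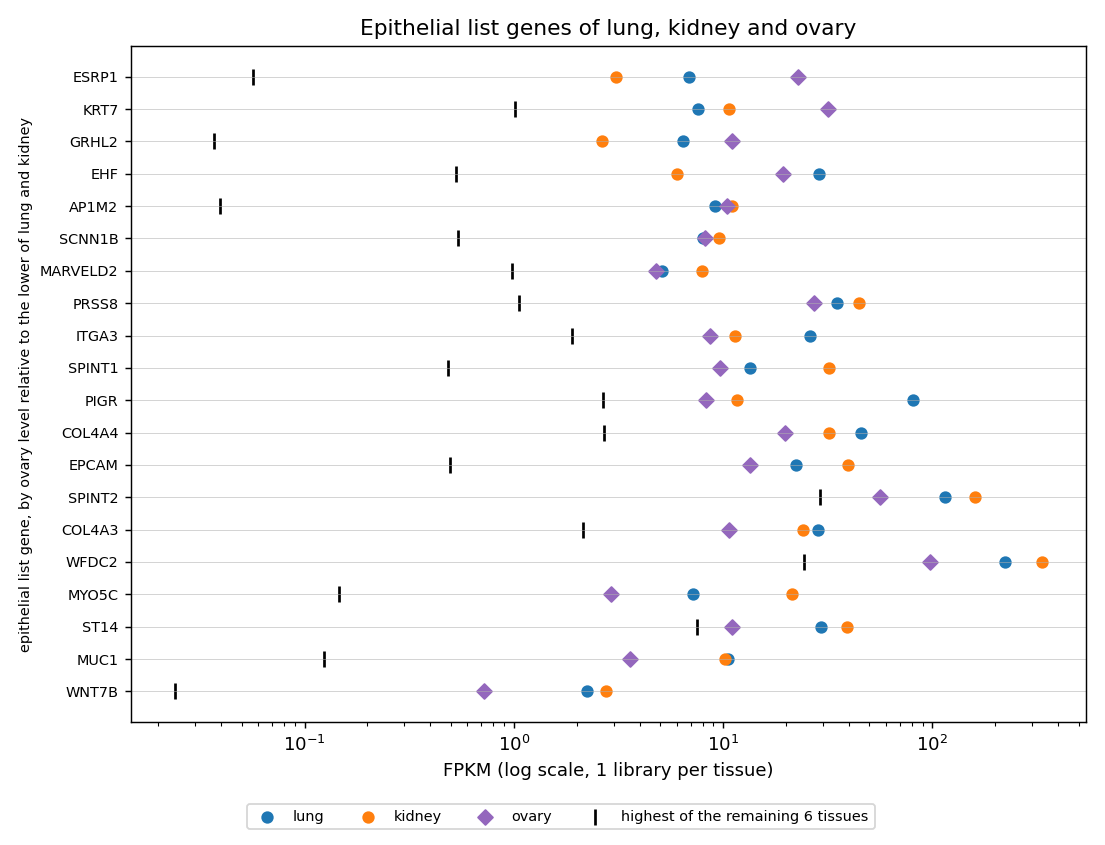
FPKM on a log scale of the 20 epithelial list genes that met the rule only when ovary was not compared, in lung, kidney and ovary, with a bar for the highest of the remaining 6 tissues. Ovary lies right of both organs for ESRP1, KRT7 and GRHL2 and left of both for 14 genes.

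Type IV collagen chains were part of this wider set. COL4A3 and COL4A4 encode chains that assemble with that of COL4A5 in the basement membranes of glomeruli and alveoli. COL4A3 stood at 28.5 FPKM in lung, 24.1 in kidney and 10.7 in ovary, and at no more than 2.14 (spleen) in the other 6 tissues. COL4A4 stood at 45.6, 32.0 and 19.7 FPKM in the same order, with 2.71 in spleen as the next level. COL4A5 was present in both organs (36.5 and 15.2) but highest in ovary (40.9), and COL4A6 was also highest there (23.3, against 7.67 and 2.54). COL4A2, a chain of basement membranes in general, was highest in adipose tissue at 410 FPKM. ITGA3, which encodes a subunit of a laminin receptor, stood at 26.03 in lung and 11.4 in kidney against 8.64 in ovary.

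**Figure D5:**
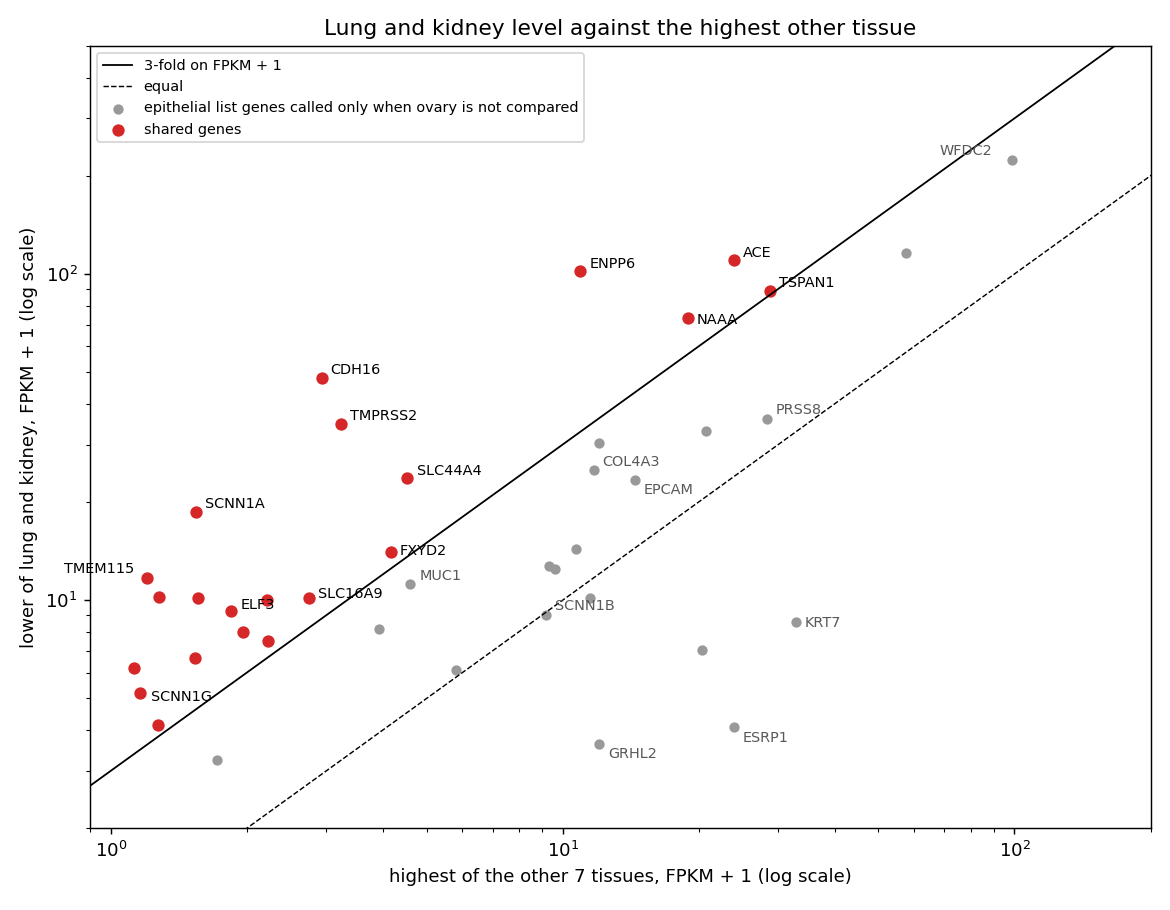
Lower of lung and kidney (vertical) against the highest of the other 7 tissues (horizontal), both as FPKM + 1 on log scales, for the 21 shared genes (red) and the 20 epithelial list genes added when ovary was not compared (grey). The solid line is the 3-fold threshold; CDH16, SCNN1A and TMPRSS2 lie farthest above it, TSPAN1 lies just above it, and EPCAM, MUC1 and COL4A3 lie between it and the dashed line of equal levels.

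Other cell types of the samples were checked with marker lists. None of 12 endothelial, 7 macrophage, 6 lymphocyte, 5 fibroblast, 5 smooth muscle, 4 hepatocyte or 3 erythroid markers was above the other 7 tissues in both lung and kidney. Over all detected genes 4.83% were, so lists of this size with 0 lie near the background. Of 7 mesenchymal genes 0 were above, and VIM was highest in adipose tissue and FN1 in liver. Of the 5 collecting duct markers, SCNN1G was the one above in both organs, which the rule that chose it required. Of the 6 podocyte markers, PTPRO was the one above, at 1.81 FPKM in lung and 9.17 in kidney against 1.36 in spleen. The only mesothelial marker that was detected, UPK3B, stood at 43.7 FPKM in lung, 18.3 in ovary and 0.418 in kidney. Hepatocyte markers summed to 27.3 FPKM in lung and 41.5 in kidney against 38896 in liver.

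The same rule was applied to the 3 pairs of tissues most like this one. It gave 284 genes for spleen and lung (2.87% of those at 2 FPKM or more in both), 155 for liver and kidney (2.09%) and 33 for kidney and ovary (0.344%). By count, lung and kidney had the fewest, and the order against kidney and ovary turned under 4 of 10 alternatives, among them both scalings by median-of-ratios and quantiles. Of the 21 shared genes of lung and kidney, 6 (28.6%) were on the epithelial lists. The share was 12.1% for the 33 genes of kidney and ovary. It was 3.23% for the 155 of liver and kidney and 0% for the 284 of spleen and lung. Of all 15637 detected genes, 224 were on the lists. The lists were chosen with lung and kidney in view, and 1 names their lineage factors. The other 3 pairs also share libraries with lung and kidney, so the shares are given side by side only.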

How the data were processed

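RNA was measured once in each of 9 tissues and in 1 pool. According to the labels, TRIzol extracts were made into TruSeq libraries, and TopHat2 2.1.0, StringTie 1.2.2 and the Sscrofa11.1 build are listed, with no roles, per the submitters' processing notes. For the annotation release, strand use and filters, the answer is not given in the sources used here. Values deposited by the authors were read as FPKM, a unit inferred from the values and from StringTie being named. Without counts, no count model applied. Depth was estimated from steps in models of 400 to 1500 bp (tolerance 0.5%). Symbols came from Ensembl identifiers (14857) or from RefSeq genes overlapping reciprocally by at least 0.5 (1714), naming 64.0% of models, and for a repeated symbol the model with the highest mean was used. Coordinates are those of the deposited table.

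Members were called with a pseudocount of 1, a fold of 3 and a floor of 2 FPKM. Detection was 1 FPKM. Members, lists and thresholds were chosen with earlier results of these data known, and the grouping of members by role was made after their values were seen. Named genes are members, genes near the threshold and list genes on which a result turns. Alternatives varied pseudocount, fold, floor, scaling, muscles and the tissues compared. The rule was tested on simulated data. Python 3.11.15, numpy 2.4.6, pandas 2.3.3 and matplotlib 3.10.9 were used.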

Additional observations from a re-analysis of the deposited data

How the results depend on the processing

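The count of 21 shared genes stayed within 1.5 times under 13 of 18 alternatives. A pseudocount of 5 gave 8 genes, a fold of 2 gave 52, a fold of 5 gave 10, leaving liver out of the comparison gave 35 and leaving ovary out gave 72; each of these widens or narrows the rule by its construction. CDH16, SCNN1A, TMPRSS2, TMEM115, ENPP6 and SLC44A4 were kept under all 18, and the other 15 were lost under at least 1, 13 of them under the pseudocount of 5. No margin changed sign. Median-of-ratios scaling divided lung by 1.52 and liver by 0.558, which lowered the lung values and raised those of liver. It kept 18 of the 21 genes and called 19 in all. The cause of the losses was not tested. Quantile normalisation kept 19 of the 21. The number of genes above the other tissues in the pool ran from 18 to 20 under the scalings. No paired analysis was possible because each tissue has 1 library. FPKM without counts gives no interval for a single value, so how firmly levels near 2 FPKM are known could not be given.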
